A study of Homo sapiens with 6 samples.

Results

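The probes described here are those for miR-224, miR-452, miR-210 and miR-155, microRNAs (miRNAs) studied in liver cancer, on 6 arrays of HuH7 RNA. They were chosen by name, as every human probe for these miRNAs of either arm or with no arm given, which gave 7 of 2019 human probes: hsa-miR-224-5p, hsa-miR-224-3p, hsa-miR-452-5p, hsa-miR-452-3p, hsa-miR-210, hsa-miR-155-5p and hsa-miR-155-3p, written below without the prefix hsa for human. HuH7 is an established human hepatocellular carcinoma line. The cisplatin group (3 arrays) came from cells given 1 µg/ml cisplatin, a platinum drug that crosslinks DNA, for 24 h, and the control group (3 arrays) from cells kept without it for the same time. Both groups share the line and the medium, nothing in the labels says that the samples of a group were separate cultures, and the p-values rest on a spread that could be technical alone.

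A miRNA is a short RNA that guides the Argonaute protein to messenger RNAs, chiefly through its seed, bases 2 to 8 from the 5′ end, and lowers their translation or stability. miR-224 and miR-452 are processed from an intron of GABRE, a gene for a GABA-A receptor subunit, and miR-224 is known as a miRNA raised in hepatocellular carcinoma. miR-210 is the best known target of the hypoxia-inducible factors among miRNAs. miR-155 is made from the long non-coding RNA MIR155HG and is best known from activated lymphocytes and macrophages, where NF-κB and AP-1 switch it on.

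The mature sequences show that the 4 hairpins give 7 distinct seeds, so the members are grouped by hairpin and not by target specificity. They are RefSeq's (GRCh38.p14), all 7 members matched, the seed is in capitals, and the probes' own letters were not used here. The probe named miR-210 carries the accession MIMAT0000267, the arm now called miR-210-3p, and is set beside that sequence.
miR-224-5p: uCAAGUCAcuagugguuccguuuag
miR-224-3p: aAAAUGGUgcccuagugacuaca
miR-452-5p: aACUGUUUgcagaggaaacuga
miR-452-3p: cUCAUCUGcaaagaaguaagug
miR-210-3p: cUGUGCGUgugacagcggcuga
miR-155-5p: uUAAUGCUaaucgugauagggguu
miR-155-3p: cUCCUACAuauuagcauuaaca
miR-210-3p was the most GC-rich of them at 63.6%, and miR-155-3p was the least at 31.8%. Of the other human mature miRNAs in the RefSeq table, only miR-4676-3p and miR-892c-3p carried the seed of a member, that of miR-452-5p. Both had a probe on the array, and neither was bright enough to be tested. Among miRNAs named alike on the array and in RefSeq, the longest run of letters that a member shared with another was 10 bases. It lay between miR-452-3p and miR-4527. Probes under names that RefSeq does not use, apart from miR-210, were not searched.

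The MIR224 hairpin lies at chrX:151958578-151958658 and the MIR452 hairpin at chrX:151959628-151959712 on the minus strand, 969 bases apart and both within the span of GABRE (chrX:151953124-151974676). MIR210 lies at chr11:568089-568198 on the minus strand, within the long non-coding RNA gene MIR210HG (chr11:565657-568457). MIR155 lies at chr21:25573980-25574044 on the plus strand, within MIR155HG (chr21:25562145-25575168).

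Each array carried 925 blank spots, and a probe counted as above the blanks where its foreground, the median of the spot's pixels in scanner units, exceeded their mean plus 2 SD on that array. These limits lay between 208.6 and 246.5 on cisplatin arrays and between 220.1 and 239.8 on control arrays. Cisplatin replicate 2 had the highest limit, since a few bright blanks, up to 575, widened its SD. From 329 to 713 human probes were above the limit on cisplatin arrays, against 500 to 738 on control arrays. Fold changes come from values corrected with normexp, quantile-normalized and put on the log2 scale, and were tested with limma over the 324 probes above the limit on all 3 arrays of at least 1 group.

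miR-210 was the 1 member above the blanks on all 6 arrays, as were 12.0% of human probes. miR-155-5p was above them on 3 of 3 control arrays and on 0 of 3 cisplatin arrays. miR-224-5p was above them on 1 of 3 cisplatin arrays and 2 of 3 control arrays. miR-224-3p, miR-452-5p and miR-155-3p were each above them on 1 of 6 arrays, in each case cisplatin replicate 3, and miR-452-3p on 0 of 6. Over all human probes, 27.7% were above the limit on exactly 1 array and 30.9% on 0, and over the blank spots themselves 11.6% and 87.6%. Only miR-210 and miR-155-5p thus entered the test, miR-155-5p through its control arrays alone, a route that favours lower values after cisplatin. Of these 2, 0 passed the limma test at an adjusted p of 0.05, where 1 of 324 probes passed (0.309%), and 0 passed at an unadjusted p under 0.05, where 8.02% of the tested probes were higher and 7.72% lower after cisplatin. The second count depends on the processing: under the alternatives, limma's unadjusted p was under 0.05 for miR-155-5p in 12 of 20 and for miR-210 in 1 of 22. With the 75th percentile both were under it, at limma adjusted p = 0.238 for miR-155-5p and limma adjusted p = 0.294 for miR-210.

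**Figure D1:**
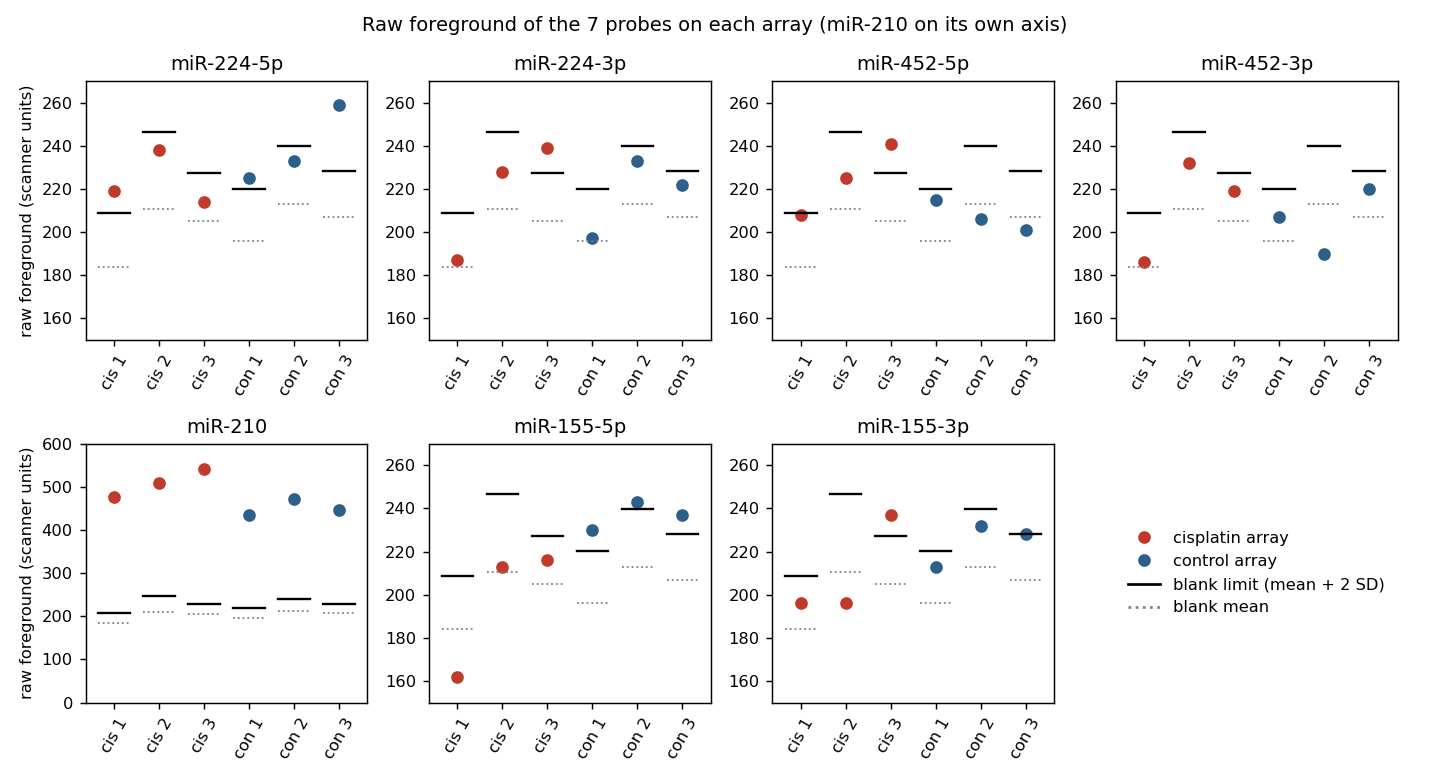
Raw foreground (y axis, scanner units) of the 7 probes on each array (x axis, cisplatin replicates 1 to 3 and control replicates 1 to 3), with the blank limit (black line) and the blank mean (dotted line) of each array. miR-210, on an axis from 0, lies far above the limit throughout, while the other 6 probes, on an axis from 150, lie near it, and miR-155-5p lies above it on the control arrays only.

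miR-210, the hypoxia-responsive member, was bright and did not pass. Its raw foreground was 477, 510 and 541 in cisplatin replicates 1, 2 and 3, against 435, 471 and 446 in control replicates 1, 2 and 3. Every cisplatin array was thus higher than every control array before normalization. At least 16.7 blank SDs separated it from the blank mean on each cisplatin array and at least 19.3 on each control array, and 1 blank spot, on cisplatin replicate 2, was as bright. Less the local background, the signal averaged 363.3 ± 29.7 in cisplatin and 301 ± 5.57 in control arrays (SD, n = 3 each, exact two-sided permutation p = 0.1, the smallest p possible). Such separation upwards was found for 19.3% of the probes above the blanks on all 6 arrays, and for 11.9% of them without the background step.

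After quantile normalization the groups of miR-210 overlapped. Normalized log2 signal was 8.62, 8.40 and 8.59 in cisplatin replicates 1 to 3, against 8.65, 8.49 and 8.43 in control replicates 1 to 3. The means were 8.54 ± 0.12 in cisplatin and 8.53 ± 0.11 in control arrays (SD, n = 3 each). The log2 fold change was 0.012 (SE 0.091, 95% confidence interval -0.21 to 0.24, limma adjusted p = 0.978), a fold of 1.01 with an interval of 0.862 to 1.18. Differences within same-numbered pairs were -0.030, -0.089 and 0.16 on the log2 scale for numbers 1, 2 and 3.

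The size of the miR-210 difference thus rested on the normalization. It was 0.22 (SE 0.099) with no normalization between arrays, 0.25 (SE 0.10) with arrays scaled to their 75th percentile and 0.13 (SE 0.12) with median scaling, but 0.068 (SE 0.10) with cyclic loess and 0.039 (SE 0.21) with arrays scaled to spike spots. The first 3 settings and spike spots differ only by 1 constant per array, so in each miR-210 necessarily stood the same 0.15 above the median of all tested probes. The authors' deposited table, scaled to 1 median per array, gave 274.4, 299.5 and 343.6 in cisplatin replicates 1 to 3, against 239.7, 240.2 and 261.1 in control replicates 1 to 3. There too every cisplatin array was the higher, as for 11.8% of the probes listed on all arrays, and a limma fit of these values gave a log2 fold change of 0.30 (SE 0.20, adjusted p = 0.650). Of the 22 alternative settings, 0 brought miR-210 past the test, with adjusted p from 0.294 to 1.00.

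Of the other tested probes, those whose signal followed that of miR-210 most closely over the 6 arrays were miR-652-3p, miR-1587 and miR-181a-5p. The measure was the root mean square difference of mean-centred log2 values, 0.037, 0.045 and 0.059 for these 3 of 323 probes compared. As these 3 were picked on the same arrays, fold changes near that of miR-210 follow from the choice. Their log2 fold changes were -0.021 (SE 0.090), 0.043 (SE 0.076) and 0.065 (SE 0.12), and none passed the limma test (adjusted p = 0.962, 0.867 and 0.867).

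**Figure D2:**
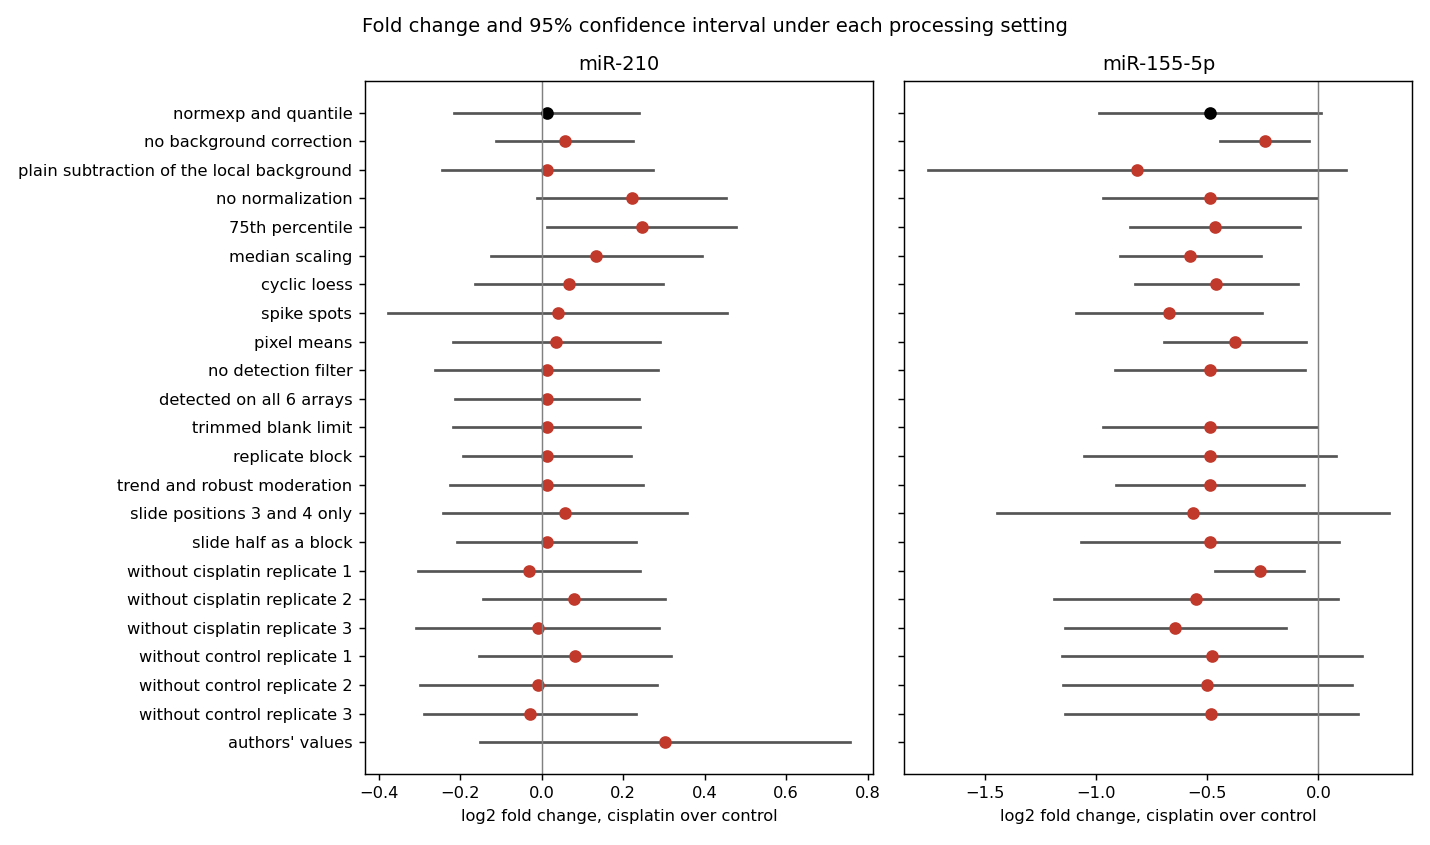
Log2 fold change of cisplatin over control (x axis; points, with 95% confidence intervals as lines) for miR-210 and miR-155-5p under each processing setting (y axis), the reported setting in black. miR-210 lies between -0.031 and 0.30, and miR-155-5p lies below 0 in every setting that could test it, between -0.82 and -0.24.

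miR-155-5p, the main product of the miR-155 hairpin, was detected in the control arrays only, and the difference did not pass. Raw foreground was 162, 213 and 216 in cisplatin replicates 1, 2 and 3, against 230, 243 and 237 in control replicates 1, 2 and 3. The groups did not overlap (exact two-sided permutation p = 0.1, the smallest p possible), as for 4.56% of human probes and 3.68% of blank spots in this direction. Less the local background, the groups overlapped, at 34, 57 and 83 in cisplatin and 91, 76 and 89 in control replicates 1 to 3. The exact two-sided permutation p was 0.2 there. The raw foreground was small in both groups. In the control arrays it lay 9.92, 3.17 and 8.94 units above the limit, and 2, 18 and 4 of the 925 blank spots were as bright. In the cisplatin arrays 895, 373 and 143 blank spots were as bright, so that cisplatin replicate 1 fell among the dimmest blanks.

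Few probes shared this pattern of detection. Being above it on 3 of 3 control arrays and 0 of 3 cisplatin arrays was seen for 14 of 2019 human probes (0.693%), 0 of 925 blank spots and 2 of 114 empty or negative control spots (1.75%). The opposite pattern was seen for 3 human probes (0.149%). With the limit taken from blanks trimmed by 5% at each end, which lowers it to 229.5 on cisplatin replicate 2, miR-155-5p was still above it on 0 cisplatin and 3 control arrays. In the authors' deposited table it is listed for the 3 control arrays, at 34.0, 28.2 and 33.2, and for none of the cisplatin arrays. That table is built from the same foreground and blank spots, so its listing is not separate evidence.

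Normalized log2 signal of miR-155-5p was 6.01, 6.60 and 6.77 in cisplatin replicates 1 to 3, against 6.98, 6.91 and 6.96 in control replicates 1 to 3. On this scale the groups did not overlap, as for 10.2% of the tested probes in this direction. Cisplatin replicate 1 stood lowest, and the cisplatin arrays spread far more (6.46 ± 0.40) than the control arrays (6.95 ± 0.036; SD, n = 3 each). The fitted log2 fold change was -0.49 (SE 0.20, 95% confidence interval -0.99 to 0.014, unadjusted p = 0.0546, limma adjusted p = 0.325). Its SE was above the median SE of all tested probes, 0.11. As the filter let miR-155-5p in through the control arrays alone, these p-values are not independent of the group in which it was higher. No cisplatin array measured miR-155-5p. With cisplatin values raised to the lowest detected signal where they lay under it, the signal was 1.34-fold lower after cisplatin on this normalized scale. That fold carries no error and is not a lower limit, and the fit did not separate the difference from no change.

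All 3 same-numbered pairs of arrays had less miR-155-5p signal in the cisplatin array, by -0.96, -0.31 and -0.19 on the log2 scale for numbers 1, 2 and 3, as did 20.4% of the tested probes. Without cisplatin replicate 1 the log2 fold change was -0.26 (SE 0.074, limma adjusted p = 0.255), so that 1 array moved the value by more than any other. The scanner output numbers each array under the heading Cell. That number was read here as the slide position, which the heading itself does not say. Between the arrays at slide positions 1 and 2, those of replicate 2, the difference was -0.31, and between those at positions 3 and 4 it was -0.58. No position held arrays of both groups, so the effects of position and of cisplatin cannot be told apart. The value was also set by background correction, at -0.24 (SE 0.080) without it and -0.82 (SE 0.37) with plain subtraction. The smallest adjusted p of its 20 alternative settings was 0.0652, with median scaling (log2 fold change -0.57, SE 0.15).

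miR-155-3p, the other arm of the hairpin, was within the range of the blanks. Raw foreground was 196, 196 and 237 in cisplatin replicates 1 to 3, against 213, 232 and 228 in control replicates 1 to 3. The highest and the lowest values both came from cisplatin arrays, and the groups overlapped (exact two-sided permutation p = 0.4). In a fit over all 2019 human probes its log2 fold change was -0.16 (SE 0.17, limma adjusted p = 0.955), so no difference between the groups was detectable at this signal.

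miR-224-5p, the arm studied in liver cancer, was close to the blank limit in both groups. Raw foreground was 219, 238 and 214 in cisplatin replicates 1 to 3, against 225, 233 and 259 in control replicates 1 to 3. Control replicate 3 was the brightest and the 1 array on which no blank spot was as bright, and the groups otherwise overlapped (exact two-sided permutation p = 0.3). With the trimmed limit it was above the blanks on 2 of 3 arrays in each group. The authors' deposited table lists it at 32.9 and 28.0 for cisplatin replicates 1 and 2 and at 29.0 and 57.2 for control replicates 1 and 3.

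In the fit over all human probes miR-224-5p had a log2 fold change of -0.11 (SE 0.13, 95% confidence interval -0.41 to 0.19, limma adjusted p = 0.955), which was -0.0065 without control replicate 3. miR-224-3p, its partner strand, gave 187, 228 and 239 in cisplatin replicates 1 to 3, against 197, 233 and 222 in control replicates 1 to 3. These groups overlapped throughout (exact two-sided permutation p = 1), and the log2 fold change was 0.051 (SE 0.16, limma adjusted p = 0.986).

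miR-452-5p, which shares the GABRE host gene with miR-224, was near or below the blanks, and its groups overlapped before normalization. Raw foreground was 208, 225 and 241 in cisplatin replicates 1 to 3, against 215, 206 and 201 in control replicates 1 to 3 (exact two-sided permutation p = 0.2). Cisplatin replicate 1 lay below control replicate 1, and only cisplatin replicate 3 was above the limit. With the trimmed limit 2 cisplatin arrays and 1 control array were.

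Normalized log2 signal of miR-452-5p was 6.98, 6.89 and 7.10 in cisplatin replicates 1 to 3, against 6.88, 6.62 and 6.67 in control replicates 1 to 3. On this scale the groups narrowly did not overlap, as for 5.60% of all human probes in this direction (exact two-sided permutation p = 0.1, the smallest p possible). The log2 fold change over all human probes was 0.27 (SE 0.12, 95% confidence interval -0.011 to 0.54, limma adjusted p = 0.941). As 0 control arrays and 1 cisplatin array measured it, this fitted value rests on dim spots in both groups, and no fold is given. miR-452-3p, printed on the neighbouring spot of the same block, gave 186, 232 and 219 in cisplatin replicates 1 to 3, against 207, 190 and 220 in control replicates 1 to 3. Both groups were below the limit throughout, so no fold is given. With the trimmed limit cisplatin replicate 2 alone was above the blanks, and the authors' deposited table lists miR-452-3p there only, at 22.0.

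The fitted values of the 2 arms from the GABRE intron that are best known, miR-224-5p and miR-452-5p, had opposite signs. Both rest on signal near the blanks, both intervals span 0 and neither arm entered the test, so no divergence is read from them. A comparison of the 2 within each array was planned only for probes that entered the test, and was not made.

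The wider list of miRNAs described as raised in hepatocellular carcinoma had 17 of 24 probes tested, miR-210 and miR-155-5p among them. Of these 17, 9 lay above 0 and 8 below, and 0 passed. Their median was 0.0075 on the log2 scale, against -0.012 over all 324 tested probes. With arrays scaled to the 75th percentile, 13 of the 17 lay above 0 (median 0.24, or 0.14 less the median of all tested probes), and with cyclic loess 8 did, with a median of -0.0044. miR-155-5p counts here with its fitted value, although 0 cisplatin arrays measured it. The brightest were miR-17-5p, a member of the proliferation-linked miR-17 to miR-92 cluster, at -0.16 (SE 0.18) and miR-21-5p, which targets PDCD4, at 0.38 (SE 0.094). miR-106b-5p stood at -0.057 (SE 0.046) and miR-93-5p at -0.14 (SE 0.049), both from an intron of MCM7.

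**Figure D3:**
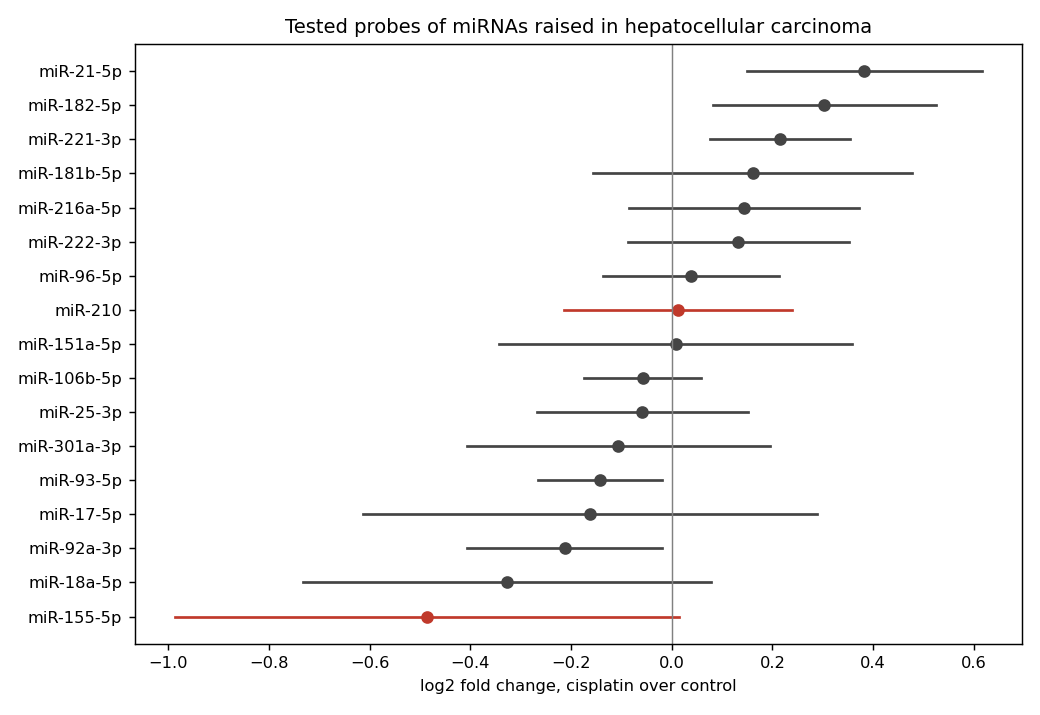
Log2 fold change of cisplatin over control (x axis; points, with 95% confidence intervals as lines) for the 17 tested probes of miRNAs raised in hepatocellular carcinoma (y axis, sorted). miR-210, in red, lies at 0.012 and miR-155-5p, in red, at -0.49, with the widest interval.

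Of miRNAs reported as responsive to hypoxia, the condition that miR-210 marks, 13 of 15 were tested, with 11 positive, 2 negative and 0 past the test, where 47.8% of all tested probes were positive. Their median was 0.16, above miR-210 itself. Under each of the 6 other treatments of background and scale tried for lists 11 of 13 were positive, with 29.0% to 70.4% of all tested probes positive. These treatments reuse the same arrays. The list was chosen with earlier results of these data known and holds related miRNAs, so its members are not independent, and a response to hypoxia was not tested. The brightest were miR-103a-3p (0.099, SE 0.063), miR-23b-3p (0.51, SE 0.11), miR-20b-5p (-0.27, SE 0.041) and miR-107 (0.093, SE 0.076). miR-103a-3p and miR-107 differ little in sequence and are known for targeting DICER1 and caveolin messages, while miR-23b-3p belongs to the miR-23/24/27 clusters.

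miR-146a-5p, which like miR-155 is switched on by NF-κB and damps its signalling, was the 1 other tested probe among 7 of miRNAs tied to that pathway. Its log2 fold change was 0.23 (SE 0.066, limma adjusted p = 0.167), on the opposite side of 0 from miR-155-5p. Of the other 5, miR-146b-5p, miR-132-3p, miR-9-5p and miR-155-3p were above the limit on some arrays and miR-147b on 0.

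**Figure D4:**
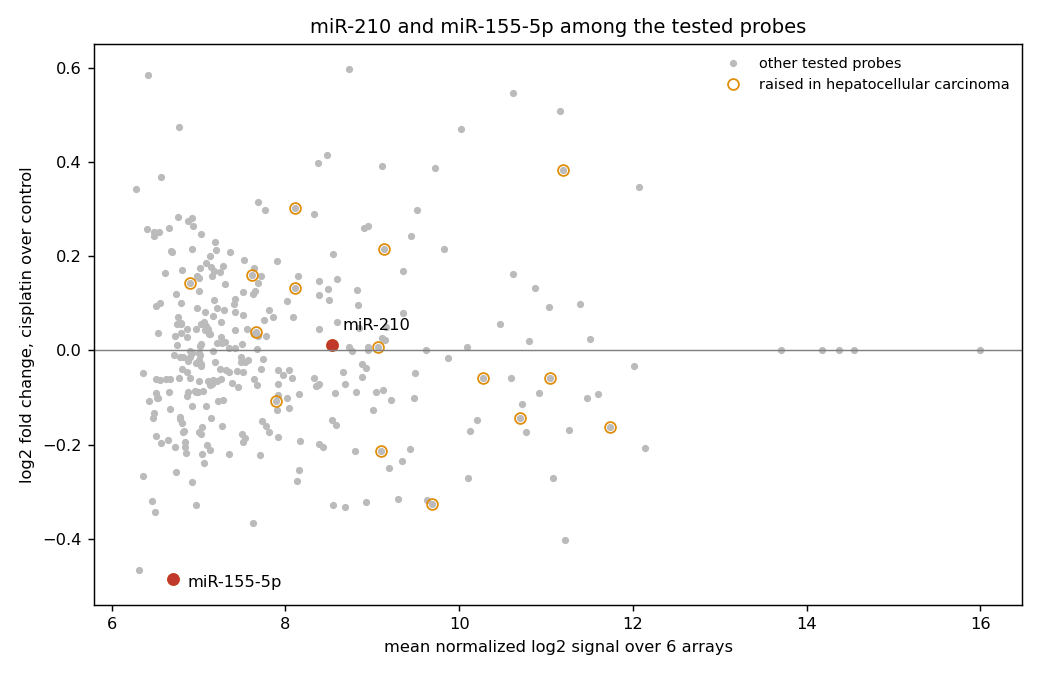
Log2 fold change of cisplatin over control (y axis) against mean normalized log2 signal over the 6 arrays (x axis) for the 324 tested probes (grey), with miR-210 and miR-155-5p in red and probes of miRNAs raised in hepatocellular carcinoma ringed. miR-155-5p, at -0.49, lies at the dim end of the tested probes, and miR-210, at 0.012, lies in the middle of the cloud.

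Markers of the liver cell were in place. All 6 hepatocyte miRNAs were above the blanks on all 6 arrays, led by miR-122-5p, the dominant miRNA of liver, with a summed foreground of 8421 to 10598 in cisplatin and 8383 to 9878 in control arrays. Of these 6, 5 had a log2 fold change below 0 and 0 passed, with a median of -0.14 that was 0.0036 with the 75th percentile, or -0.092 once the median of all tested probes was subtracted. miR-122-5p stood at -0.21 (SE 0.050), miR-194-5p at 0.021 (SE 0.090), miR-192-5p at -0.058 (SE 0.069) and miR-148a-3p at -0.19 (SE 0.18). Markers of blood cells had 0 of 7 probes tested, and their summed foreground was 1462 to 1614 in cisplatin and 1482 to 1722 in control arrays. miR-451a and miR-142-3p were above the limit on 2 of 3 cisplatin and 2 of 3 control arrays each, miR-150-5p on 2 and 1, miR-144-3p on 1 and 1, miR-486-5p on 0 and 2, miR-223-3p on 0 and 1, and miR-142-5p on 0 of 6. Of 8 stromal and endothelial markers, 4 were tested, miR-126-3p (0.046, SE 0.13), miR-145-5p (0.14, SE 0.074), miR-143-3p (0.17, SE 0.12) and miR-214-3p (-0.13, SE 0.16), and 0 passed, with summed foregrounds of 1805 to 2050 in cisplatin and 1823 to 2013 in control arrays. All 6 arrays were of RNA from 1 line, HuH7, so these lists were not read as shares of cell types. The part of these markers in the miR-155-5p values was not tested. Fewer cells and less RNA per cell cannot be told apart on such arrays.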

How the data were processed

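Per the file headers, the scanner output gives intensity on a linear scale, as the pixel median and mean of each of 3200 spots and of its local background on the 6 arrays. The RNA was labelled with Hy5, per the labels. The authors' deposited table, also intensity, was found to equal the foreground median minus the trimmed mean of the blank spots, divided by 1 factor per array, with a median of 31, and it lists 698 to 988 probes per array. It served as an alternative, in which missing values were not imputed. The scanner software is not given in the sources used here.

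Foreground and local background were corrected with normexp (offset 50) over all spots, quantile-normalized over the 2019 human probes and fitted with lmFit and eBayes in limma 3.58.1 under R 4.3.3 (4 residual and 1.52 prior degrees of freedom), with Benjamini-Hochberg adjustment over all probes tested. Normexp's offset shrinks folds of dim probes, and the number of arrays and the low signal limit the precision. The fit was tested on simulated data. Members that did not enter the test have values from a fit over all 2019 probes. The 1.34-fold of miR-155-5p is the control mean over the cisplatin mean of, per array, the higher of its own and the lowest detected signal. It is an estimate given without an error. Single raw values were compared by exact permutation over the 6 arrays. Figures were drawn with matplotlib 3.10.9.

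The members and lists were chosen with earlier results of these data known. Named are all members, the 3 probes most like each member above the blanks on all arrays, and up to 4 of the brightest tested probes of each list. Same-numbered samples deviated together (correlations 0.44, 0.24 and 0.20 for numbers 1, 2 and 3), so the labels' numbers were taken to pair them. The pairs served in the within-pair differences and the replicate block, while the reported fit and the permutation tests ignored them. A differently numbered pair, cisplatin replicate 2 and control replicate 3, gave 0.23, so the pairing of numbers 2 and 3 is not unique to them. Alternatives changed background correction, normalization, filter, values, design or arrays.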

Additional observations from a re-analysis of the deposited data

How the results depend on the processing

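The number of human probes that passed limma was 1 as reported. It was 3 without background correction and with the 75th percentile, and 4 with median scaling and with cyclic loess. It was 0 without normalization, with spike spots, pixel means, no detection filter, detection on all 6 arrays, the replicate block, trend and robust moderation, slide positions 3 and 4 only and the authors' values, where 33, 13, 34, 97, 39, 57, 38, 38 and 26 probes had an unadjusted p under 0.05. When arrays were left out in turn the count ranged from 0 to 3, and it was 3 only when cisplatin replicate 2 was missing. The cause of these changes was not tested.

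No member passed under any alternative. The replicate block left miR-210 at 0.012 (adjusted p = 0.946) and miR-155-5p at -0.49 (adjusted p = 0.312), and so changed no call on a member. miR-210 turned negative in 4 of 22 alternatives, all of which left out 1 array, -0.031 without cisplatin replicate 1, -0.0097 without cisplatin replicate 3, -0.0082 without control replicate 2 and -0.028 without control replicate 3, with 0.082 as the highest of these 6 values. miR-155-5p was negative in all 20 alternatives that tested it, and in those that left out 1 array it ranged from -0.64 to -0.26. It could not be fitted with detection on all 6 arrays or in the authors' values. Of the untested members, miR-224-5p and miR-452-5p kept their sign in 18 of 18 alternatives, miR-452-3p in 17, miR-155-3p in 16 and miR-224-3p in 14. In all these counts of signs, changes of filter, moderation or block leave the estimate as it is. Every alternative also reuses arrays of the same 6, so the counts are not independent evidence. Spike spots moved the median of all tested probes to -0.11 and the authors' values moved it to 0.14.

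Signal over background limits 6 of the 7 members, which lay near the blank spots.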
